A study of Homo sapiens with 60 samples.

Results

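The comparison covered 20 of the 60 arrays of the series and asked whether doxorubicin and rapamycin given together moved a gene differently in SKBR3 cells and in HB4a cells. For each gene the response of a line was the mean log2 value with both drugs minus the mean with vehicle. The HB4a response was then subtracted from the SKBR3 response, and this difference is positive where the response was higher in SKBR3. SKBR3 is a breast carcinoma line with amplified ERBB2, and HB4a is labelled a normal breast epithelial line. The groups were SKBR3 with 30 nM doxorubicin plus 20 nM rapamycin, SKBR3 with vehicle, HB4a with the same doses of both drugs, and HB4a with vehicle, with 5 arrays each. Vehicle was DMSO, and cells of all groups received their treatment medium after 1 day in culture. The arrays of a group carry the numbers 1, 2, 3, 4 and 6, and values are given in that order. The lines were kept in different media, with insulin and hydrocortisone for HB4a only, and were seeded at different densities, so line and culture condition cannot be told apart. The exposure time is not given in the sources used here. Of 19775 genes with a value, 6739 were tested, those above log2 5 on at least 5 of the 20 arrays.

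Doxorubicin blocks type II topoisomerases on DNA and leaves double-strand breaks. The damage response turns on genes of cell cycle arrest, DNA repair and apoptosis. Rapamycin inhibits the kinase complex mTORC1, which drives ribosome production, glycolysis and lipid synthesis and supports progress through the cell cycle. Genes of G2 and mitosis are switched on late in the cell cycle, so their RNA level in a culture follows the share of cells in those phases as well as the level per cell.

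Markers matched the line labels in part. ERBB2 lay between 10.87 and 11.73 on the SKBR3 arrays, against 6.34 to 7.02 on the HB4a arrays, and the amplicon neighbours GRB7 and STARD3 were also higher in SKBR3. KRT8, KRT18 and EPCAM, markers of luminal epithelium, were at log2 8.0 or above on all 20 arrays. The HB4a arrays also had basal KRT5 (8.14 to 10.25) and the mesenchymal genes VIM (8.02 to 9.04) and FN1 (10.88 to 11.38), and SKBR3 had little CDH1, the epithelial cadherin. Basal CDH3 and mesenchymal SPARC were likewise high in HB4a, at 8.06 and 8.82 or above. Other markers of these types were not: basal KRT14 was at most 1.25 and mesenchymal COL1A1 at most 4.72 on any array. Luminal FOXA1 was lower in HB4a (2.68 to 3.98) than in SKBR3 (5.67 to 6.35). Luminal GATA3 was higher in HB4a, at 6.75 or above, against at most 5.31 in SKBR3. The leukocyte and endothelial markers looked at were at most 3.83 on any array. SKBR3 vehicle array 3 stood apart. Its median over 4 genes (CDH1, GPX1, NNMT and TPM2) was 5.77. These genes were chosen as above log2 9 on all HB4a arrays and at background on the other SKBR3 arrays. By that choice the other SKBR3 arrays were low for them, at 0.48 to 0.71 with vehicle and 0.57 to 0.89 with both drugs. Genes that HB4a has and SKBR3 lacks were thus raised on 1 array of the SKBR3 vehicle group, and results that rest on it are given with and without it.

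The response differed between the lines for 584 of the 6739 genes tested (8.67%) by limma at an adjusted p under 0.05. The difference was positive for 202 genes (3.0%) and negative for 382 genes (5.67%), and it reached 2-fold for 53 and 172 of them. Without SKBR3 vehicle array 3, 163 of the 202 and 293 of the 382 were called again, among 477 calls in all. The drug pair itself changed 958 genes in SKBR3 (14.2%), 425 up (6.31%) and 533 down (7.91%), and 1201 genes in HB4a (17.8%), 735 up (10.9%) and 466 down (6.91%).

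Among genes with a positive difference, 72 rose in SKBR3 with no call in HB4a, 106 fell in HB4a with no call in SKBR3, and 10 rose in SKBR3 and fell in HB4a. Among genes with a negative difference, 139 fell in SKBR3 with no call in HB4a, 173 rose in HB4a with no call in SKBR3, and 40 fell in SKBR3 and rose in HB4a. The lines moved together for other genes: 156 rose in both and 100 fell in both, and the size of the response differed for 13 of these. Over all tested genes the responses of the lines had a Pearson r of 0.21, given as a description since genes are not independent. The median difference over all tested genes was −0.09. Quantile normalization moved this median to 0.03, and the calls were then 368 positive and 278 negative.

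**Figure D1:**
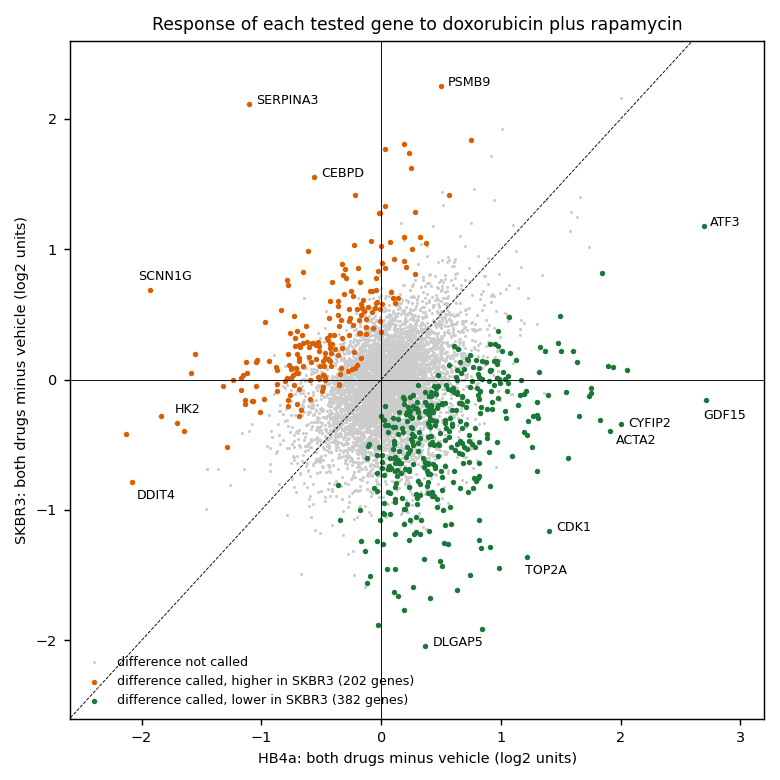
Response to both drugs (both drugs minus vehicle, log2 units) of each of the 6739 tested genes, with SKBR3 on the vertical and HB4a on the horizontal axis. Orange points are the 202 genes with a higher response in SKBR3, green points the 382 with a lower one, grey points were not called, and the dashed line marks equal responses. Genes of mitosis such as CDK1 and DLGAP5 lie low, and GDF15 and CYFIP2 lie far to the right near the height of 0.

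The mitosis genes tested fell in SKBR3, with 1 exception, and none was called lower in HB4a. Of 34 genes of G2 and mitosis written in the list, 31 were tested, and the difference was negative and called for 30 of these (5.67% of all genes tested), the exception being CCNF (−0.68, adjusted p = 0.133). Without SKBR3 vehicle array 3 the count was 28. In SKBR3 30 of the 31 fell (background 7.91%), with a median response of −1.18, and in HB4a 7 rose (10.9%) and none fell (6.91%), with a median of 0.37. The median difference was −1.38 over the list and −0.09 over all genes tested. Of the 23 members that passed the level filter in each line by itself, 22 were called lower, against 228 of all 4474 such genes. RNA from cultures does not separate fewer cells in mitosis from less RNA per cell.

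CDK1, the kinase that starts mitosis, had 7.28, 6.85, 7.15, 7.53 and 6.07 on the SKBR3 arrays with both drugs, against 8.79, 7.68, 8.20, 8.35 and 7.68 on the SKBR3 vehicle arrays. It had 7.77, 7.99, 6.75, 8.04 and 7.46 on the HB4a arrays with both drugs, against 6.11, 5.34, 6.39, 6.75 and 6.42 on the HB4a vehicle arrays. The SKBR3 groups did not overlap, with the drug arrays lower, and in HB4a the lowest drug array and the highest vehicle array both stood at 6.75. CDK1 fell by 1.16 ± 0.30 in SKBR3 (SE, adjusted p = 0.0113), rose by 1.40 ± 0.30 in HB4a (adjusted p = 0.00228), and differed by −2.56 ± 0.42 (adjusted p = 0.000423), a 5.91-fold difference in response.

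TOP2A encodes topoisomerase II alpha, the protein doxorubicin traps on DNA, and is made mainly in dividing cells. It had 6.24, 6.95, 7.18, 7.85 and 6.97 on the SKBR3 arrays with both drugs, against 8.67, 7.59, 8.54, 8.68 and 8.49 on the SKBR3 vehicle arrays. It had 6.99, 6.30, 4.34, 6.73 and 6.17 on the HB4a arrays with both drugs, against 5.24, 3.94, 4.99, 4.86 and 5.40 on the HB4a vehicle arrays. Both pairs of groups overlapped, in SKBR3 through drug array 4 and vehicle array 2, and in HB4a through drug array 3, which was below 4 of the 5 vehicle arrays. The responses were −1.36 ± 0.39 in SKBR3 and 1.22 ± 0.39 in HB4a (SE, adjusted p = 0.0242 and 0.035), and the difference was −2.58 ± 0.56 (adjusted p = 0.00452). With SKBR3 vehicle array 3 and all arrays numbered 1 left out, the difference was −2.10 and was no longer called (adjusted p = 0.0516).

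CCNA2, the cyclin of S phase and G2, had 5.47, 5.21, 4.97, 5.25 and 4.76 on the SKBR3 arrays with both drugs, against 7.18, 6.47, 7.01, 6.88 and 6.26 on the SKBR3 vehicle arrays. It had 6.78, 5.68, 5.49, 6.22 and 5.70 on the HB4a arrays with both drugs, against 6.19, 5.52, 5.80, 6.0 and 5.84 on the HB4a vehicle arrays. All SKBR3 drug arrays were below all SKBR3 vehicle arrays, while the HB4a groups overlapped. The difference was −1.73 ± 0.31 (adjusted p = 0.000968), and SKBR3 alone moved past the test.

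Further genes of spindle and cell division had negative differences too. DLGAP5, a spindle protein, had 3.47, 3.16, 3.09, 4.06 and 3.06 on the SKBR3 arrays with both drugs, against 6.07, 4.59, 5.53, 5.53 and 5.35 on the SKBR3 vehicle arrays, and its SKBR3 response of −2.05 ± 0.34 stood beside 0.37 ± 0.34 in HB4a (SE). NEK2, a centrosome kinase, ANLN, a scaffold of the cleavage furrow, and HMMR, a receptor and spindle protein, differed by −1.77 ± 0.36, −2.25 ± 0.43 and −2.43 ± 0.49. SMC4, a condensin subunit, and PBK, a mitotic kinase, differed by −1.82 ± 0.44 and −1.95 ± 0.44 (adjusted p = 0.011 and 0.00623). For PBK and SMC4 array 4 of SKBR3 with both drugs was the highest of its group, at 5.17 and 7.28. With SKBR3 vehicle array 3 and all arrays numbered 1 left out, PBK differed by −1.58 (adjusted p = 0.0596) and SMC4 by −1.50 (adjusted p = 0.105), neither called. The SKBR3 groups overlapped for NEK2, PBK, SMC4 and TBC1D31 and did not for DLGAP5, ANLN and HMMR. TBC1D31, a centriolar satellite protein, fell in SKBR3 and rose in HB4a, where its level was low (2.12 to 3.59 with both drugs, 1.28 to 2.11 with vehicle), and its difference was −2.05 ± 0.38.

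Averaged over the 31 tested mitosis genes, the level was 5.87 ± 0.15 with both drugs and 7.03 ± 0.23 with vehicle in SKBR3, and 7.06 ± 0.29 with both drugs and 6.66 ± 0.21 with vehicle in HB4a (SD, n = 5 arrays each). The SKBR3 drug arrays all lay below every other array. In HB4a, drug array 3 was at 6.58, within the range of the vehicle arrays, and the other 4 drug arrays were above that range.

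**Figure D2:**
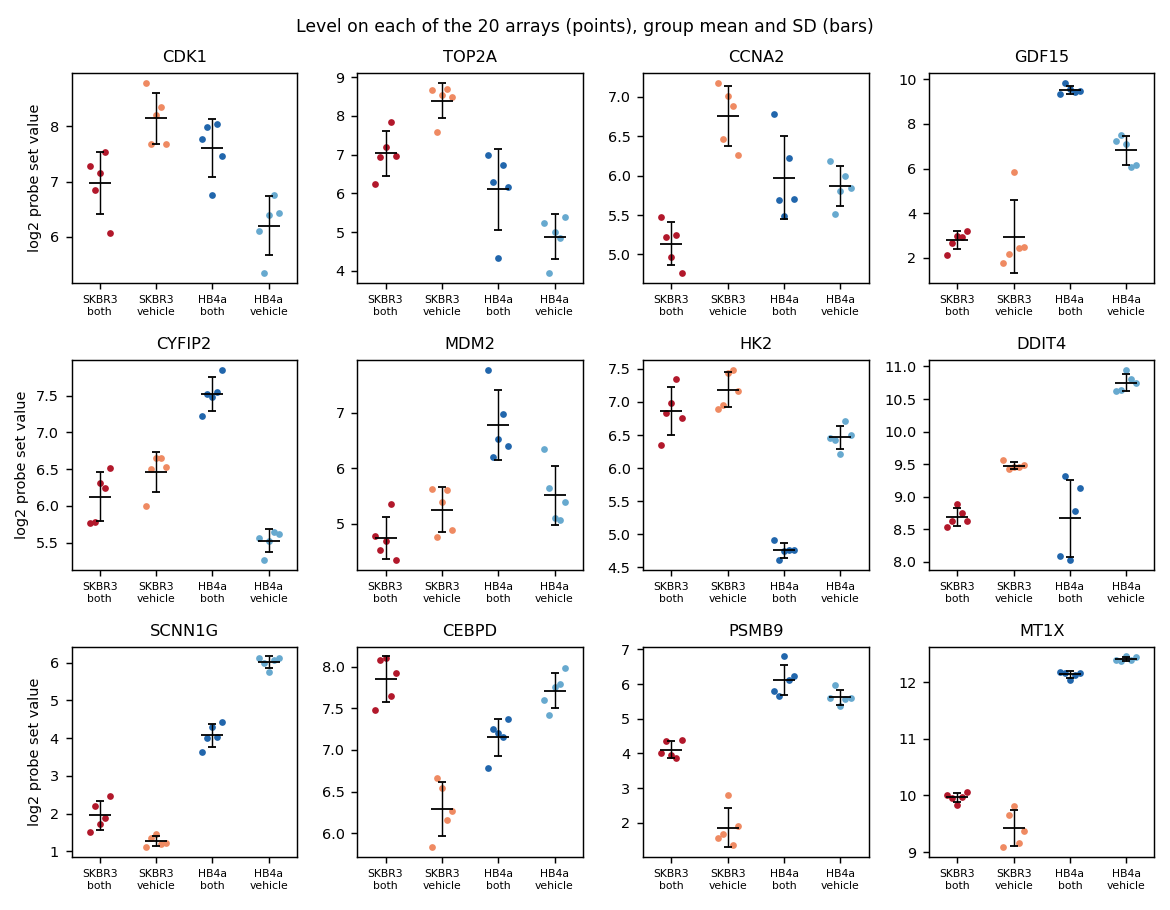
Log2 probe set value of 12 genes on each of the 20 arrays, in the order SKBR3 with both drugs, SKBR3 with vehicle, HB4a with both drugs and HB4a with vehicle. Bars are the group mean and SD. CDK1 and CCNA2 are lower with drugs in SKBR3, GDF15 and CYFIP2 are higher with drugs in HB4a, and 1 SKBR3 vehicle array is high for GDF15.

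Promoters of mitosis genes often carry 2 short motifs, the cell cycle homology region (CHR, TTTGAA) and the CCAAT box (CCAAT), which bind the DREAM complex and NF-Y. Stretches of 250 bases before the start are shown for TOP2A and CCNB2, which hold both motifs, and for CCNA2, whose response was among those described above. Sequences are from RefSeq on GRCh38.p14, written 5′ to 3′ along the gene's strand. Capitals mark each CHR match (TTCAAA on the other strand) and each CCAAT match (ATTGG on the other strand).
TOP2A, chr17:40417897-40418146, minus strand: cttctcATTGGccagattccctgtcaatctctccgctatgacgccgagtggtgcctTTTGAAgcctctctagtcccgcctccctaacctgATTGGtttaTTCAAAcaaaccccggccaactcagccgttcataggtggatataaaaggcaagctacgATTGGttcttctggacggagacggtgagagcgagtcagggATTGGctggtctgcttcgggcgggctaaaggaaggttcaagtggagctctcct
CCNB2, chr15:59104896-59105145, plus strand: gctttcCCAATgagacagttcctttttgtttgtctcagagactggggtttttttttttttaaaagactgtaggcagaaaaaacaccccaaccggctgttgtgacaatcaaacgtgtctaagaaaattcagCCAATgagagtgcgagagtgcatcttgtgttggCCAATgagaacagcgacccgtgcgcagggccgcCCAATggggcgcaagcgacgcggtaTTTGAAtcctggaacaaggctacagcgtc
CCNA2, chr4:121823884-121824133, minus strand: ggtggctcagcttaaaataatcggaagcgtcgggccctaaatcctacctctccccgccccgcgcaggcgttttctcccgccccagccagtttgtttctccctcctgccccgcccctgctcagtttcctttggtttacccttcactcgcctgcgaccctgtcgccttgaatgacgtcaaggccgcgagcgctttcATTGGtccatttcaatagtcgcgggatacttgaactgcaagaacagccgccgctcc
The TOP2A stretch held 2 CHR and 4 CCAAT matches, CCNB2 held 1 and 4, and CCNA2 held 1 CCAAT match and no TTTGAA. Of the 31 tested mitosis genes 25 had a listed promoter, with 32 starts in all. CHR was found on either strand in 50.0% of these 32 stretches, against 13.3% of all 35116 and 8.52% of the 8244 of tested genes. CCAAT was found in 81.2% of the 32, against 32.0% of all and 33.7% of tested genes, and both motifs in 40.6%, against 4.69% and 3.25%. Of the 26 stretches of DNA damage-induced genes, 3.85% held CHR and 57.7% held CCAAT, and of the 40 stretches of DNA replication genes 5.0% held CHR and 60% held CCAAT. A match is a run of letters and was not tested as a binding site.

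DNA replication genes showed a smaller version of the same direction. Of 36 tested, the difference was negative and called for 10 (background 5.67%) and positive and called for 1, MCM5 (3.0%). The median difference was −0.25. In SKBR3 13 fell (7.91%) and 1 rose (6.31%), and in HB4a 8 fell (6.91%) and 5 rose (10.9%). TYMS, the enzyme of thymidylate synthesis, had 8.05, 8.07, 8.11, 8.16 and 7.98 on the SKBR3 arrays with both drugs, against 8.94, 8.49, 8.85, 8.90 and 8.55 on the SKBR3 vehicle arrays. It had 9.74, 9.60, 9.57, 9.65 and 9.64 on the HB4a arrays with both drugs, against 9.45, 9.20, 9.18, 9.34 and 9.24 on the HB4a vehicle arrays. Neither pair of groups overlapped, and the directions were opposite: −0.67 ± 0.08 in SKBR3 and 0.36 ± 0.08 in HB4a, a difference of −1.03 ± 0.12 (SE, adjusted p = 1.35e-05). CDC45, part of the replicative helicase, and LIG1, the ligase that joins Okazaki fragments, differed by −0.88 ± 0.15 and −0.78 ± 0.16. PCNA, the sliding clamp, differed by −0.76 and RRM2, a ribonucleotide reductase subunit, by −0.77. Averaged over the list, SKBR3 stood at 6.25 to 6.35 with both drugs and 6.53 to 6.74 with vehicle, and HB4a at 6.92 to 7.08 and 6.91 to 7.18. Only the SKBR3 ranges did not overlap. MCM5 had an adjusted p of 0.0493 and lost its call in 22 of 35 alternative settings, while its difference stayed between 0.49 and 0.73 in all 35.

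Genes induced by DNA damage showed the other pattern: none passed the test in SKBR3, and most of those tested rose in HB4a. Of 30 written, 27 had a value and 19 were tested. In SKBR3 none of the 19 rose (background 6.31%) or fell (7.91%), with a median response of −0.27. In HB4a 16 rose (10.9%), with a median of 0.97. Averaged over the list, SKBR3 vehicle array 3 was at 5.49, against 4.76 to 4.90 on the other SKBR3 vehicle arrays. Without that array the SKBR3 responses of GDF15, CDKN1A and TP53I3 were 0.56, 0.34 and 0.23, against −0.16, −0.11 and −0.31 with it. Those of CYFIP2 and MDM2 stayed negative, at −0.29 and −0.48. Over the 19 genes the difference was negative and called for 15 (background 5.67%), and for 16 without SKBR3 vehicle array 3. The median difference was −1.25 over the list and −0.09 over all genes tested. Many of these genes were low in SKBR3 in either condition, and a fall below background cannot be seen. Of the 8 members that passed the level filter in each line by itself, 7 were called lower, against 228 of all 4474 such genes.

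CYFIP2, which acts on the actin-regulating WAVE complex, was well measured in both lines. It had 5.77, 5.78, 6.31, 6.24 and 6.51 on the SKBR3 arrays with both drugs, against 5.99, 6.50, 6.65, 6.64 and 6.53 on the SKBR3 vehicle arrays. It had 7.22, 7.52, 7.48, 7.55 and 7.85 on the HB4a arrays with both drugs, against 5.56, 5.26, 5.52, 5.65 and 5.62 on the HB4a vehicle arrays. The SKBR3 groups overlapped and all HB4a drug arrays were above all HB4a vehicle arrays. The SKBR3 response was −0.34 ± 0.16 (SE, adjusted p = 0.148), CYFIP2 rose by 2.0 ± 0.16 in HB4a (adjusted p = 2.59e-08), and the difference was −2.34 ± 0.22 (adjusted p = 2.72e-06).

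GDF15, a secreted stress cytokine, had 2.14, 2.65, 2.97, 2.94 and 3.22 on the SKBR3 arrays with both drugs, against 1.79, 2.17, 5.84, 2.44 and 2.49 on the SKBR3 vehicle arrays. It had 9.36, 9.85, 9.56, 9.45 and 9.46 on the HB4a arrays with both drugs, against 7.26, 7.52, 7.09, 6.08 and 6.17 on the HB4a vehicle arrays. In SKBR3 GDF15 was low on 9 arrays and at 5.84 on vehicle array 3, and in HB4a all drug arrays were above all vehicle arrays. The difference was −2.87 ± 0.72 (SE, adjusted p = 0.0142) with all arrays and −2.15 (adjusted p = 0.000735) without that array.

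MDM2, a ubiquitin ligase, had 4.79, 4.53, 4.69, 5.35 and 4.35 on the SKBR3 arrays with both drugs, against 5.62, 4.77, 5.39, 5.62 and 4.89 on the SKBR3 vehicle arrays. It had 7.78, 6.20, 6.53, 6.97 and 6.40 on the HB4a arrays with both drugs, against 6.36, 5.64, 5.10, 5.06 and 5.39 on the HB4a vehicle arrays. The groups overlapped in each line. The SKBR3 response was −0.52 ± 0.28 (SE, adjusted p = 0.224), MDM2 rose by 1.26 ± 0.28 in HB4a (adjusted p = 0.00362), and the difference was −1.78 ± 0.40 (adjusted p = 0.00667).

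CDKN1A encodes p21, the inhibitor of cyclin-dependent kinases. It had 4.67, 4.89, 4.77, 4.21 and 4.90 on the SKBR3 arrays with both drugs, against 4.18, 4.54, 6.59, 3.99 and 4.66 on the SKBR3 vehicle arrays. It had 9.42, 9.87, 9.68, 9.74 and 9.59 on the HB4a arrays with both drugs, against 8.61, 8.67, 8.61, 7.93 and 7.67 on the HB4a vehicle arrays. CDKN1A rose by 1.36 ± 0.33 in HB4a (SE, adjusted p = 0.00664). The difference, −1.47 ± 0.47, missed the threshold with all arrays (adjusted p = 0.0575) and passed it without SKBR3 vehicle array 3, which was at 6.59, with a value of −1.02 (adjusted p = 0.0279). TP53I3, an oxidoreductase, likewise had a high value of 5.24 on that array, and its difference was −2.14 ± 0.52 with it and −1.60 without it, called in both cases. GADD45A, a stress gene listed here with FOXO targets and also induced by DNA damage, rose by 1.07 ± 0.15 in HB4a and differed by −0.87 ± 0.21, or −0.64 and not called (adjusted p = 0.0755) with that array and all arrays numbered 1 left out.

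**Figure D3:**
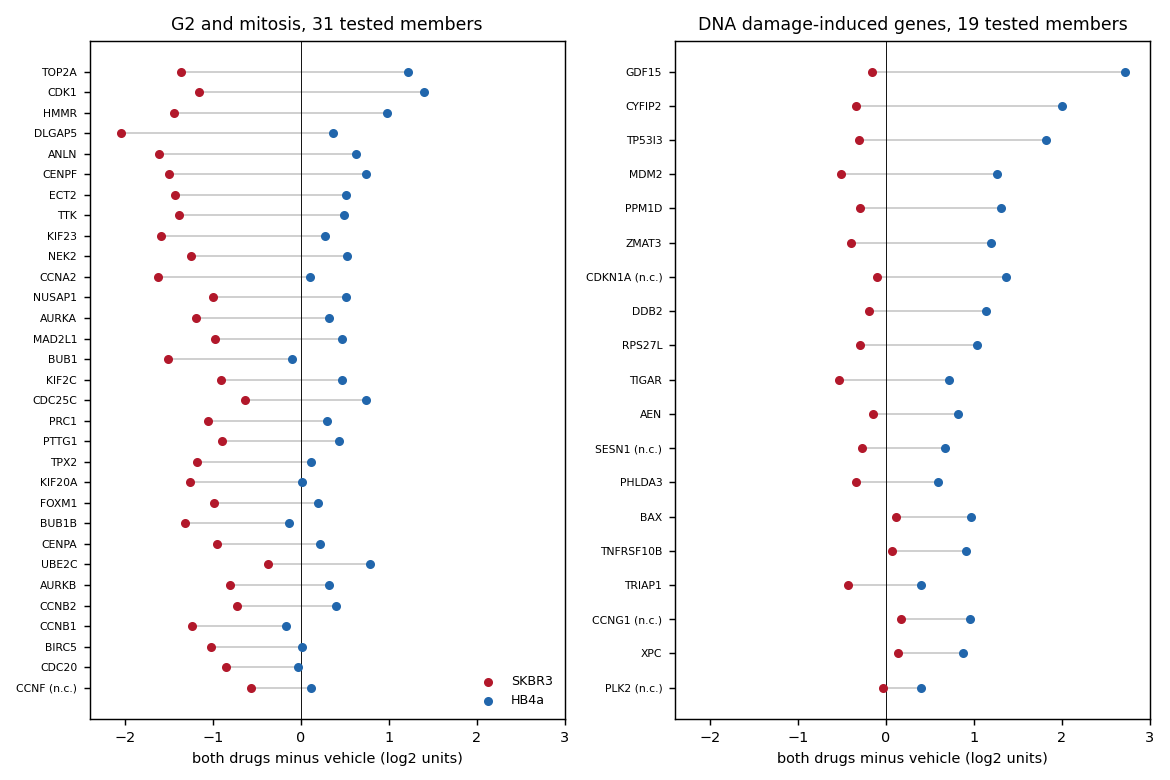
Response to both drugs (log2 units) of each tested member of the mitosis list (left) and the DNA damage list (right), SKBR3 in red and HB4a in blue. Genes marked n.c. were not called for the difference. In the mitosis list all SKBR3 points lie left of 0, and in the DNA damage list all 19 HB4a points lie right of 0.

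Single-drug arrays of the same lines were set beside these in a fit of all 60 arrays. They share the vehicle arrays with the comparison above, so the values are not independent of it. In SKBR3, all 32 mitosis genes tested there fell with rapamycin alone (background 8.67% of 7714 genes), with a median of −1.37, and none fell with doxorubicin alone (0.207%), with a median of −0.14. In HB4a, the mitosis medians were 0.25 with rapamycin and −0.15 with doxorubicin. Of 22 DNA damage-induced genes none rose in SKBR3 with doxorubicin alone (0.946%) or rapamycin alone (6.13%), with medians of −0.05 and −0.26. In HB4a 20 of the 22 rose with doxorubicin alone (12%), with a median of 1.0, and none with rapamycin alone (2.29%), with a median of 0.01. In C5.2 cells, HB4a cells transfected with HER2 (ERBB2) cDNA, both drugs raised all 22 DNA damage-induced genes (5.33%), with a median of 1.07, and 7 of the 32 mitosis genes, with a median of 0.34. The estimate for CDK1 was −1.54 with rapamycin and 0.18 with doxorubicin in SKBR3, and that for CYFIP2 was 0.46 with rapamycin and 1.87 with doxorubicin in HB4a.

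Genes of the ERK pathway's output were mixed. Of 19 tested, 2 were higher (background 3.0%) and 7 lower (5.67%) in SKBR3, with a median difference of −0.43. Without SKBR3 vehicle array 3 the counts were 1 and 4. In SKBR3 5 rose (6.31%) and none fell (7.91%), and in HB4a 9 rose (10.9%) and none fell (6.91%). ATF3, a stress-induced transcription factor, had 5.28, 6.70, 6.37, 6.11 and 6.44 on the SKBR3 arrays with both drugs, against 4.41, 5.02, 5.68, 4.82 and 5.11 on the SKBR3 vehicle arrays. It had 7.66, 8.46, 8.02, 7.88 and 8.02 on the HB4a arrays with both drugs, against 5.35, 5.94, 5.28, 5.46 and 4.54 on the HB4a vehicle arrays. It rose in both lines, by 1.18 ± 0.27 in SKBR3 and 2.70 ± 0.27 in HB4a, and the difference was −1.52 ± 0.38 (SE, adjusted p = 0.0123). DUSP5, a nuclear phosphatase of ERK, rose in HB4a only, by 1.89 ± 0.27, and differed by −1.79 ± 0.39. EGR1, an immediate-early factor, differed by −2.16 (adjusted p = 0.0379), and by −2.13 without SKBR3 vehicle array 3, where it was not called (adjusted p = 0.0587). ETV5, an ETS factor, was at most 1.23 on 9 SKBR3 arrays and 2.42 on vehicle array 3, and its difference was −1.16 ± 0.32 with that array and −0.89 ± 0.22 without it, called in both cases. Without array 4 of HB4a with both drugs the ETV5 difference was −1.12 and not called. MYC, the growth-promoting transcription factor, ran the other way, with responses of 0.41 ± 0.13 in SKBR3 (adjusted p = 0.0359) and −0.35 ± 0.13 in HB4a (adjusted p = 0.0639) and a difference of 0.76 ± 0.18. With SKBR3 vehicle array 3 and all arrays numbered 1 left out, the MYC difference was 0.72 and not called (adjusted p = 0.0525). The ligands TGFA and HBEGF, which activate EGFR, rose in HB4a and differed by −1.20 and −0.98, with TGFA at −0.86 and still called without SKBR3 vehicle array 3.

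Genes of metabolism that mTORC1 signalling drives included several that fell in HB4a and fell less, or were not called, in SKBR3. Of 20 glycolysis genes tested, 8 fell in SKBR3 (background 7.91%) and 11 in HB4a (6.91%). The 3 called for the difference were all higher in SKBR3 (3.0%). HK2, the hexokinase of proliferating cells, had 6.35, 6.84, 6.99, 7.35 and 6.76 on the SKBR3 arrays with both drugs, against 6.89, 6.96, 7.43, 7.49 and 7.17 on the SKBR3 vehicle arrays. It had 4.91, 4.61, 4.74, 4.75 and 4.76 on the HB4a arrays with both drugs, against 6.46, 6.42, 6.22, 6.72 and 6.50 on the HB4a vehicle arrays. The SKBR3 groups overlapped and the HB4a groups did not. The SKBR3 response was −0.33 ± 0.15 (adjusted p = 0.156), HK2 fell by 1.71 ± 0.15 in HB4a, and the difference was 1.38 ± 0.22 (SE, adjusted p = 0.000302). ENO1, enolase, fell in both lines, by 0.18 ± 0.05 in SKBR3 and 0.70 ± 0.05 in HB4a. PFKFB3, which makes an activator of phosphofructokinase, differed by 0.91 ± 0.25, with neither line called by itself, and was not called without array 2 (0.85) or array 3 (0.80) of SKBR3 with both drugs.

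DDIT4, an inhibitor of mTORC1 that stress and hypoxia induce, had 8.54, 8.63, 8.90, 8.75 and 8.63 on the SKBR3 arrays with both drugs, against 9.57, 9.42, 9.45, 9.45 and 9.49 on the SKBR3 vehicle arrays. It had 8.09, 9.33, 8.03, 8.78 and 9.13 on the HB4a arrays with both drugs, against 10.62, 10.64, 10.95, 10.80 and 10.75 on the HB4a vehicle arrays. Neither pair of groups overlapped. DDIT4 fell by 0.79 ± 0.18 in SKBR3 and fell by 2.08 ± 0.18 in HB4a, a difference of 1.29 ± 0.25 (SE, adjusted p = 0.00215). Of 17 hypoxia targets outside glycolysis, 4 were higher in SKBR3 (background 3.0%) and none lower (5.67%). ADM, the vasodilator adrenomedullin, rose in SKBR3 by 0.83 ± 0.19 and fell in HB4a by 0.65 ± 0.19. HILPDA, a lipid droplet protein that hypoxia induces, behaved alike, with a difference of 1.54 ± 0.17 and no overlap in either line. LOX, the collagen cross-linking oxidase, was at background on the SKBR3 arrays (0.89 at most), and its difference of 1.27 ± 0.38 rests on a fall in HB4a and lost its call in 14 of 20 fits with 1 array left out, at 1.09 to 1.33.

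SCD, the desaturase of fatty acid synthesis, had 8.71, 8.85, 9.47, 9.47 and 8.86 on the SKBR3 arrays with both drugs, against 9.15, 9.15, 9.78, 9.80 and 9.44 on the SKBR3 vehicle arrays. It had 5.30, 5.83, 5.72, 6.12 and 6.18 on the HB4a arrays with both drugs, against 7.25, 7.09, 7.63, 7.78 and 7.65 on the HB4a vehicle arrays. The SKBR3 response was −0.39 ± 0.19 (adjusted p = 0.18), and SCD fell by 1.65 ± 0.19 in HB4a, all drug arrays below all vehicle arrays. The difference was 1.26 ± 0.27 (SE, adjusted p = 0.00476), and SCD was the only 1 of 11 fatty acid synthesis genes called (background 8.67%). In the cholesterol pathway, 3 of 14 were lower in SKBR3 (background 5.67%) and none higher (3.0%). In SKBR3 7 fell (7.91%) and none rose (6.31%), with a median response of −0.38. In HB4a 2 fell (6.91%) and 2 rose (10.9%), with a median of −0.15. ACAT2, which makes the first intermediate, fell by 1.0 ± 0.16 in SKBR3 and differed by −0.83 ± 0.22, or −0.75 without array 3 of SKBR3 with both drugs, where it was not called (adjusted p = 0.0526). HSD17B7, an enzyme of the late pathway, fell in SKBR3 and rose in HB4a. TM7SF2, a sterol reductase, rose by 1.48 ± 0.22 in HB4a, with a difference of −1.20 ± 0.31.

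Ribosome biogenesis genes fell in SKBR3 in few cases and in HB4a in most. Of 30 tested, 4 fell (background 7.91%) and 2 rose (6.31%) in SKBR3, with a median of −0.22. In HB4a 18 fell (6.91%) and none rose (10.9%), with a median of −0.49. The difference was positive and called for 7 (3.0%) and negative for none (5.67%), with a median of 0.31. After quantile normalization 12 were called positive, beside 368 among all genes tested. NOP16, a nucleolar factor of the large subunit, fell in both lines, by 0.52 ± 0.09 in SKBR3 and by 1.28 ± 0.09 in HB4a. PES1, of the same process, fell in HB4a only, by 0.59 ± 0.12. NOB1, the endonuclease of small subunit maturation, had 7.03, 7.0, 7.03, 6.93 and 7.01 on the SKBR3 arrays with both drugs, against 5.65, 5.80, 5.98, 6.16 and 5.93 on the SKBR3 vehicle arrays. It had 6.76, 7.12, 7.16, 6.98 and 6.98 on the HB4a arrays with both drugs, against 6.72, 7.02, 6.60, 6.81 and 6.88 on the HB4a vehicle arrays. NOB1 rose in SKBR3 by 1.09 ± 0.11 and differed by 0.90 ± 0.15 (SE, adjusted p = 0.000489), so its direction in SKBR3 was not that of NOP16. Of 14 components of the mTORC1 pathway, DDIT4 and EIF4EBP1, a repressor of translation that mTORC1 phosphorylates, had called positive differences (background 3.0%). MTOR itself was not tested, its highest value being 4.33.

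**Figure D4:**
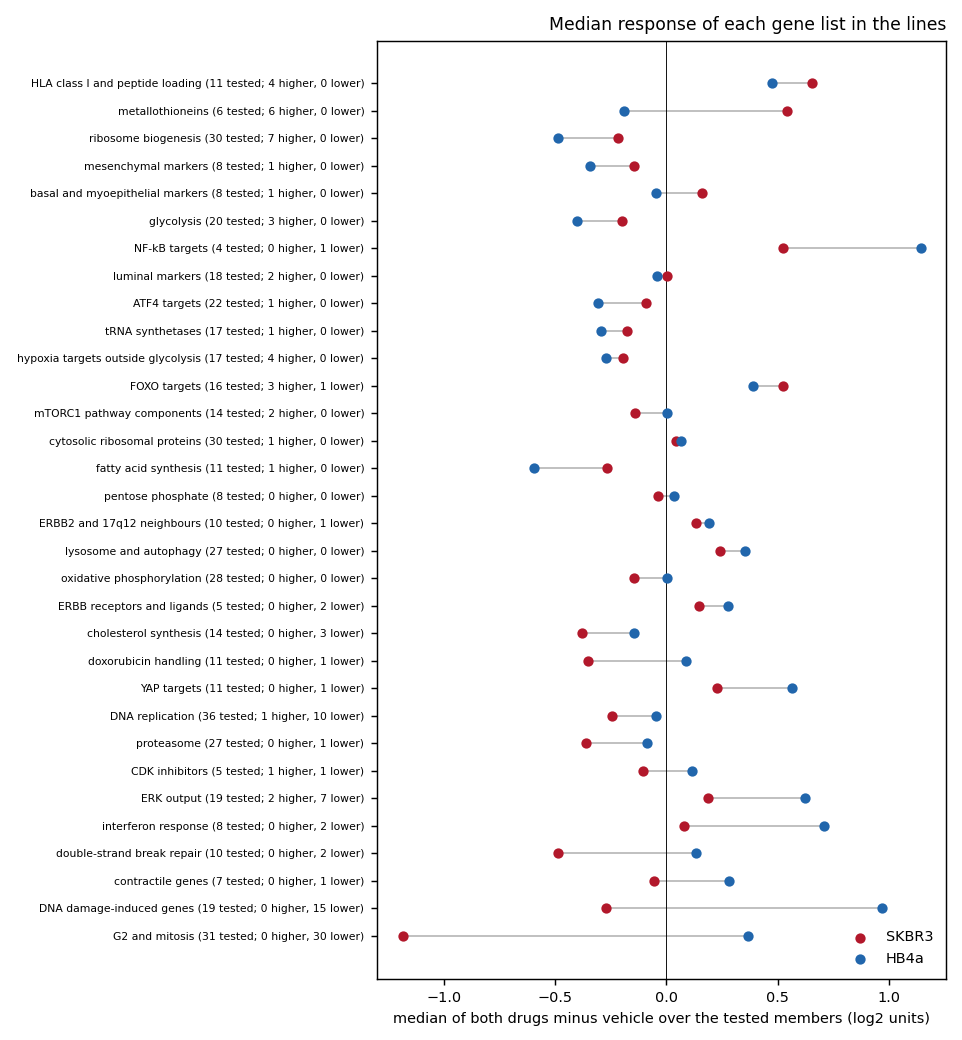
Median response to both drugs (log2 units) over the tested members of each gene list, SKBR3 in red and HB4a in blue, lists ordered by their median difference. Labels give the number tested and the numbers called higher and lower in SKBR3. The widest gaps are those of the mitosis list (−1.18 and 0.37) and of the DNA damage list (−0.27 and 0.97).

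The 6 metallothionein genes tested, small proteins that bind zinc and copper, all had a positive difference that was called (background 3.0%). They rose in SKBR3 (6.31%), with a median of 0.54, and none was called in HB4a, with a median of −0.19. MT1X had 10.0, 9.96, 9.83, 9.98 and 10.06 on the SKBR3 arrays with both drugs, against 9.09, 9.66, 9.82, 9.16 and 9.38 on the SKBR3 vehicle arrays. It had 12.17, 12.17, 12.03, 12.13 and 12.17 on the HB4a arrays with both drugs, against 12.38, 12.36, 12.45, 12.38 and 12.45 on the HB4a vehicle arrays. The SKBR3 groups were separate by little, vehicle arrays 2 and 3 coming near the drug arrays, and all HB4a values were higher. In HB4a all drug arrays were below all vehicle arrays for MT1X, MT1H and MT1G. The MT1X response in HB4a was −0.27 ± 0.10 (SE) and missed the threshold (adjusted p = 0.0583). It passed in the fit of all 60 arrays (adjusted p = 0.0332). MT1X differed by 0.82 ± 0.14 (SE, adjusted p = 0.000565), and by 0.92 without SKBR3 vehicle array 3. MT1H and MT1G differed by 0.75 ± 0.13 and 0.74 ± 0.17. Metallothionein transcripts are near-identical and probe sets may read several of them, so the 6 values are not independent. In the fit of 60 arrays, all 6 rose in SKBR3 with rapamycin alone (6.13%) with a median of 0.75. With doxorubicin alone none rose (0.946%) and 4 of the 6 fell (0.207%) in SKBR3, with a median of −0.49, and 3 of the 6 fell in HB4a (2.46%), with a median of −0.28.

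Metallothionein genes are induced through metal response elements, which bind the factor MTF1. Of the 6 genes 3 had a listed promoter, and the stretches of MT1X and MT2A are shown from RefSeq on GRCh38.p14. Capitals mark TGCACNC or TGCGCNC on either strand.
MT1X, chr16:56682220-56682469, plus strand: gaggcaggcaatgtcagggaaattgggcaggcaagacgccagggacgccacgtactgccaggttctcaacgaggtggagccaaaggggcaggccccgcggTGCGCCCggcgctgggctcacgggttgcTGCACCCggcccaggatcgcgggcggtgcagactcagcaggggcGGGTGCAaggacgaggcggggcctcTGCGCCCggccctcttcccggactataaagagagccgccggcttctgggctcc
MT2A, chr16:56608334-56608583, plus strand: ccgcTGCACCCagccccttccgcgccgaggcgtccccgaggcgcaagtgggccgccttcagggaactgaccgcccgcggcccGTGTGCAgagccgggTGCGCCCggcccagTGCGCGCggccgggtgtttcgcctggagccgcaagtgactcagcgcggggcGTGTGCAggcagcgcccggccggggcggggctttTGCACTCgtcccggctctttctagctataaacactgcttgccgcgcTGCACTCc
MT1X held 4 matches and MT2A 7. At least 3 matches were found in all 3 metallothionein stretches listed and in 1.58% of all 35116 promoters. The matches in the stretches shown do not overlap each other, and none was tested as a binding site.

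Genes of antigen processing rose in SKBR3. Of 11 genes of HLA class I and peptide loading tested, 8 rose (background 6.31%) and none fell (7.91%) in SKBR3. In HB4a 4 rose (10.9%) and none fell (6.91%). The difference was positive and called for 4 (3.0%): TAP1, TAP2, PSMB9 and PSMB10. The differences of the HLA heavy chains lay between −0.28 ± 0.20 (HLA-F) and 0.13 ± 0.39 (HLA-C), none called. TAP1, a subunit of the peptide transporter, had 5.34, 5.82, 5.53, 5.56 and 5.69 on the SKBR3 arrays with both drugs, against 3.25, 3.82, 4.22, 3.69 and 3.77 on the SKBR3 vehicle arrays. It had 6.21, 6.26, 6.78, 6.48 and 6.65 on the HB4a arrays with both drugs, against 5.85, 5.87, 5.47, 5.67 and 5.79 on the HB4a vehicle arrays. It rose in both lines with no overlap, by 1.84 ± 0.16 in SKBR3 and 0.75 ± 0.16 in HB4a (SE), and the difference was 1.09 ± 0.22 (adjusted p = 0.00269). PSMB9, an immunoproteasome subunit, had 4.0, 4.36, 3.94, 3.86 and 4.37 on the SKBR3 arrays with both drugs, against 1.56, 1.68, 2.79, 1.36 and 1.89 on the SKBR3 vehicle arrays. It rose by 2.25 ± 0.23 in SKBR3, and the difference was 1.75 ± 0.33 with SKBR3 vehicle array 3, the highest vehicle array, and 1.99 without it. PSMB10, of the same complex, differed by 1.26 ± 0.19. Interferon response genes did not move with them: of 8 tested, none was higher (3.0%) and 2, ISG15 and USP18, were lower in SKBR3 (5.67%). Of these 8, 1 rose in SKBR3 (6.31%) and 6 in HB4a (10.9%).

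Further genes with high positive differences had various roles. CEBPD, a transcription factor of stress and differentiation, had 7.48, 8.07, 8.11, 7.65 and 7.93 on the SKBR3 arrays with both drugs, against 5.84, 6.66, 6.54, 6.16 and 6.26 on the SKBR3 vehicle arrays. It had 6.78, 7.25, 7.20, 7.16 and 7.37 on the HB4a arrays with both drugs, against 7.60, 7.42, 7.75, 7.79 and 7.99 on the HB4a vehicle arrays. It rose in SKBR3 and fell in HB4a with no overlap in either line, and the difference was 2.11 ± 0.22 (SE, adjusted p = 8.4e-06). SERPINA3, the acute-phase antichymotrypsin, had 3.53, 4.11, 4.36, 3.54 and 3.76 on the SKBR3 arrays with both drugs, against 1.63, 2.18, 1.64, 1.56 and 1.73 on the SKBR3 vehicle arrays. It had 4.36, 5.34, 4.64, 4.64 and 5.90 on the HB4a arrays with both drugs, against 5.94, 5.10, 6.63, 5.83 and 6.91 on the HB4a vehicle arrays. Its difference was 3.22 ± 0.43 (adjusted p = 5.1e-05), from a low level in SKBR3. SCNN1G, a subunit of the epithelial sodium channel, fell by 1.93 ± 0.17 in HB4a and differed by 2.62 ± 0.24. In SKBR3 it stayed between 1.11 and 2.47, and its called rise there lies close to background. RAB32, a small GTPase of organelle transport, rose by 1.77 ± 0.17 in SKBR3 and differed by 1.74 ± 0.24. FBXO32, a ubiquitin ligase subunit and FOXO target, rose by 1.74 ± 0.21 in SKBR3 and differed by 1.51 ± 0.30. DHRS3, a retinal reductase, TNS3, a focal adhesion protein, and OPN3, an opsin, all rose in SKBR3 and fell in HB4a, with differences of 1.60, 1.50 and 1.40. FJX1, a secreted regulator of planar polarity, fell in HB4a by 1.56 ± 0.16 and differed by 1.75 ± 0.22.

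Of 16 FOXO targets tested, which rise when growth signalling falls, 7 rose in SKBR3 (background 6.31%) and 4 in HB4a (10.9%). For the difference, 3 were higher in SKBR3 (FBXO32, PIK3IP1 and TXNIP, background 3.0%) and 1 was lower (GADD45A, 5.67%). TXNIP, an inhibitor of glucose uptake, rose by 1.05 ± 0.15 in SKBR3, but its difference of 0.67 ± 0.21 (SE, adjusted p = 0.046) lost its call in 21 of 35 alternative settings, with values of 0.55 to 0.85 over all 35. PIK3IP1, an inhibitor of PI3K, lost its call in 4 of 20 fits with 1 array left out (0.64 to 0.67). ACTA2, smooth muscle actin, rose by 1.91 ± 0.35 in HB4a and was at background on 9 SKBR3 arrays. Its difference was −2.30 ± 0.49 with SKBR3 vehicle array 3 and −1.81 without it.

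Of 10 tested genes of double-strand break repair, 4 fell in SKBR3 (background 7.91%) and 1 in HB4a (6.91%). The median difference was −0.59, and 2 were called lower (5.67%). These were FANCI, of the Fanconi anemia repair pathway (−1.56, adjusted p = 0.0259), and CHEK2, a checkpoint kinase (−0.72, adjusted p = 0.0242). Of 5 CDK inhibitor genes tested, CDKN1C, which encodes p57, was higher (1.0, adjusted p = 0.0378) and CDKN3, a phosphatase of CDKs, lower in SKBR3 (−1.06, adjusted p = 0.0378). Over all genes tested 3.0% were higher and 5.67% lower. CDKN3 was −1.03 and not called (adjusted p = 0.0622) without SKBR3 vehicle array 3. Of 7 contractile genes ACTA2 was the 1 called (background 8.67%), and the median difference was −0.71 with that array and −0.28 without it.

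Of 27 lysosome and autophagy genes 8 rose in SKBR3 (background 6.31%) and 13 in HB4a (10.9%), and none was called for the difference (8.67%). None of 28 genes of oxidative phosphorylation was called for the difference, and 1 of 27 proteasome and 1 of 30 ribosomal protein genes were. Of the 27 proteasome genes, 9 fell in SKBR3 (background 7.91%) and none in HB4a (6.91%), with a median difference of −0.27. ERBB2 had 11.53, 11.68, 11.73, 11.64 and 11.72 on the SKBR3 arrays with both drugs, against 10.87, 11.72, 11.56, 11.61 and 11.65 on the SKBR3 vehicle arrays, and its difference was 0.03 ± 0.20 (SE, adjusted p = 0.944). EGFR, the related receptor, and CCND1, the cyclin of G1, had differences of 0.08 ± 0.21 and 0.05 ± 0.47, and IRS2, the insulin receptor adaptor, −0.72 ± 0.45, none called. IRS2 was at most 1.64 on 9 SKBR3 arrays and 3.30 on vehicle array 3, without which its difference was −0.27 ± 0.23. A missed threshold does not show that the responses were alike, and the standard error of CCND1 was wide. Among keratins, KRT5, KRT18 and KRT19 fell in HB4a and differed by 1.64, 0.32 and 0.98. KRT5 was at most 2.44 on the SKBR3 arrays.

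**Figure D5:**
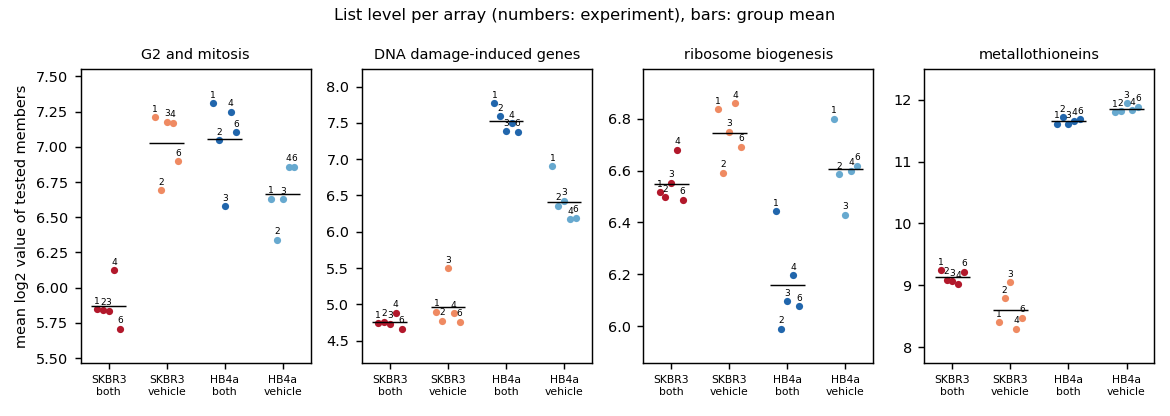
Mean log2 value of the tested members of 4 lists on each array, numbered by experiment, with group means as bars, in the order SKBR3 with both drugs, SKBR3 with vehicle, HB4a with both drugs and HB4a with vehicle. SKBR3 vehicle array 3 is the highest of its group for the DNA damage-induced genes (5.49) and the metallothioneins (9.05), and HB4a drug array 3 the lowest of its group for mitosis (6.58).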

How the data were processed

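RNA was hybridised to Affymetrix 3′ expression arrays, per the labels' protocols. The authors deposited log2 probe set values made with RMA, the only tool in the submitters' processing notes, with no version. Base 2 was taken from the range, −0.60 to 13.08. Batches, scan dates and detection calls are not given in the sources used here, and array number limits precision. Of 54675 probe sets, 41091 carried 1 gene symbol, and each of 19775 genes took its brightest probe set over all 60 arrays.

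limma 3.58.1 (R 4.3.3, with the data.table package at version 1.17.8) fitted 1 mean per group over the 20 arrays, unpaired, with empirical Bayes and trend, 2-sided. P-values were adjusted by Benjamini-Hochberg over the 6739 genes tested, at 0.05. "Called", "rose" and "fell" mean past this threshold. In counts of list members, "higher" and "lower" in SKBR3 mean a higher or lower response there, not a higher or lower level. The fit was tested on simulated data with independent noise, of the same spread on every array for a given gene. These data held no odd array and no correlation of same-numbered arrays, so that test does not cover such features.

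The 33 gene lists (744 genes, 666 with a value, 493 tested) and the alternatives were chosen with earlier results of these data known, and lists were counted, not tested. Named genes were the 8 largest differences per direction among genes passing the filter in both lines, the 4 largest among genes passing in 1 line, the 6 largest of opposite direction, up to 3 members per direction of lists with 3 or more called, and a chosen set with ERBB2, EGFR, IRS2, CDKN1A, MDM2, GDF15, TP53I3, TOP2A, MTOR, DDIT4, HK2, SCD, MYC and CCND1. Other list members were named after their values were seen. The 5 experiments are called independent in the labels, but nothing more is said of the cultures, so p-values measure the spread between these arrays. Equal numbers were not taken as pairs, by the rule set for this comparison and not because of the data. Residuals of same-numbered drug and vehicle arrays correlated at 0.07 to 0.66 in SKBR3 and −0.49 to 0.90 in HB4a. A block by experiment number is among the alternatives given below. Tables were assembled with pandas 2.3.3 and numpy 2.4.6 under Python 3.11.15, and plots drawn in matplotlib 3.10.9.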

Additional observations from a re-analysis of the deposited data

Results flagged for a closer look

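The response to both drugs differed between the lines for 584 genes. In all, 50 genes were called in opposite directions in the lines. The 6 flagged here had the largest differences among those also called for the difference without SKBR3 vehicle array 3. SERPINA3 (difference 3.22), SCNN1G (2.62) and CEBPD (2.11) rose in SKBR3 and fell in HB4a. TOP2A (−2.58), CDK1 (−2.56) and TBC1D31 (−2.05) fell in SKBR3 and rose in HB4a.

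Among 144 groups of 5 arrays (36 genes in 4 groups), 18 had 1 array far from the other 4 by Dixon's test, a gap that chance gives in about 1 group in 20. SKBR3 vehicle array 3 was the highest of its group for GDF15 (5.84), TP53I3 (5.24), CDKN1A (6.59), ACTA2 (3.41) and IRS2 (3.30), all genes of higher level in HB4a. SKBR3 vehicle array 1 was the lowest for TNS3 (6.10), CYFIP2 (5.99), ERBB2 (10.87) and EGFR (5.08), and array 1 of SKBR3 with both drugs was the lowest for EGFR (5.27). Array 4 of SKBR3 with both drugs was the highest for PBK (5.17), SMC4 (7.28) and TBC1D31 (5.63). SKBR3 vehicle array 2 was the lowest for TOP2A (7.59) and the highest for SERPINA3 (2.18). Array 2 of HB4a with both drugs was the highest for MYC (9.41), and HB4a vehicle array 2 was the lowest for OPN3 (8.47) and NEK2 (4.64).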

How the results depend on the processing

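The 584 genes called for the difference became 882 with no filter, 275 with a filter at log2 7, 341 when each line had to pass the filter, and 1222 with array weights. The 958 genes of SKBR3 became 546 at log2 7, 1990 with array weights and 633 without both SKBR3 arrays numbered 1. The 1201 genes of HB4a became 533 at log2 7, 768 with the filter in each line and 2024 with array weights. With the experiment number as a replicate block within each line, the counts were 1355, 2134 and 1962, and with a block shared by the lines 976 and 1643 for the difference and SKBR3. In SKBR3, 4 of 5 numbers and in HB4a 3 of 5 correlated best with their own number, a hint from the data. Leaving out 1 array at a time gave 426 to 619 genes for the difference, 634 to 1248 for SKBR3 and 924 to 1460 for HB4a, with 634 without array 2 of SKBR3 with both drugs. Of 55 called named genes, 42 kept their call in all alternatives that tested them, and none reversed. Differences near 0 did reverse. ERBB2 was −0.0085 with centred arrays, −0.081 with array weights, −0.091 without both SKBR3 arrays numbered 1 and −0.12 without SKBR3 vehicle array 3 and all arrays numbered 1, and it was −0.12 to 0.11 with 1 array left out. With 1 array left out, EGFR ranged from −0.043 to 0.22 and CCND1 from −0.26 to 0.27, and CCND1 was −0.052 with the mean of all probe sets. The last alternative, and that without both SKBR3 arrays numbered 1, were chosen after seeing the data. The causes were not tested. Genes near background in 1 line have little signal there, which limits how far their response can be read.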
